A study of Homo sapiens with 12 samples.

Results

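The nuclear-encoded subunits of the mitochondrial respiratory chain and ATP synthase were examined in MIAPaCa2 cells, an established pancreatic ductal adenocarcinoma line. They were taken by gene symbol: NDUFA, NDUFB, NDUFC, NDUFS and NDUFV with a number for complex I, SDHA to SDHD for complex II, symbols starting with UQCR and CYC1 for complex III, COX4 to COX8 for complex IV, and ATP5 symbols other than those with AF in the name for complex V, a rule that also admits some genes that are no subunits. The rule took 88 of the 26475 symbols in the count table, 37 of complex I, 4 of complex II, 11 of complex III, 17 of complex IV and 19 of complex V. Of these, 81 passed the filter on low counts and were tested among 14582 genes. RNA was sequenced from 4 groups with 3 replicates each, namely vehicle-treated parental cells, parental cells treated with oxamate, vehicle-treated oxamate-resistant cells and oxamate-resistant cells treated with oxamate. The labels call these groups parental or LDHA inhibitor resistant, and untreated or treated with the LDHA inhibitor. Oxamate is a pyruvate analogue that inhibits lactate dehydrogenase A, the enzyme that converts pyruvate to lactate. The resistant cells were polyclonal populations that grew out of MIAPaCa2 cells kept in sodium oxamate, so that the comparison of the lines is a comparison of 1 derived population with its parent. All groups were grown in DMEM with fetal bovine serum. Nothing in the labels says whether replicates came from separate cultures, and p-values then measure only the spread between these samples.

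Complex I takes electrons from NADH and complex II takes them from succinate. Ubiquinone carries them to complex III, cytochrome c carries them on to complex IV, and complex IV reduces oxygen. Complexes I, III and IV pump protons across the inner membrane, and complex V, the ATP synthase, lets them flow back to make ATP. Except for complex II, each complex joins subunits made from nuclear genes with a few made from mitochondrial DNA. When LDHA is inhibited, less pyruvate leaves as lactate and less NAD+ is regenerated in the cytosol, and pyruvate and NADH can instead be oxidised in mitochondria. The 13 subunits encoded by mitochondrial DNA were not analysed here. Symbols are those of the count table, and ATP5 genes have since been renamed (ATP5A1 is ATP5F1A and ATP5G1 is ATP5MC1).

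Promoters are shown for 4 of the members on which the results below turn: ATP5G1, with the largest fall in vehicle-treated resistant cells, COX6A1, with the largest fall among the COX symbols, ATP5G2, with opposite oxamate responses in the lines, and NDUFV3, which was not lower in resistant cells. Each is the 250 bases before the annotated start, read 5′ to 3′ from RefSeq on GRCh38.p14. Capitals mark matches on either strand to CCAAT, the NF-Y box, to GCATGCGC, the core of the NRF1 site, or to CCGGAAG, an ETS motif of the kind GABPA binds. None of these motifs overlapped another in these windows.
ATP5G1, chr17:48892537-48892786 (plus strand): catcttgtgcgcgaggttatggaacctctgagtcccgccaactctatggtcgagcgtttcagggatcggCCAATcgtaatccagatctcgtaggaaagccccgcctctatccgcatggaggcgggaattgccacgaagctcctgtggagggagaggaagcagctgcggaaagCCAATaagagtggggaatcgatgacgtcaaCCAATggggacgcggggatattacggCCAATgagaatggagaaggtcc
COX6A1, chr12:120437863-120438112 (plus strand): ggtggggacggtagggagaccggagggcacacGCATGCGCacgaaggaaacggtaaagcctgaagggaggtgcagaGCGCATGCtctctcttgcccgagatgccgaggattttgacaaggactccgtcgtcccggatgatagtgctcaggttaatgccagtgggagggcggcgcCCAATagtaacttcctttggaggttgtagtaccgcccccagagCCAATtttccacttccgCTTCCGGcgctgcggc
ATP5G2, chr12:53676084-53676333 (minus strand): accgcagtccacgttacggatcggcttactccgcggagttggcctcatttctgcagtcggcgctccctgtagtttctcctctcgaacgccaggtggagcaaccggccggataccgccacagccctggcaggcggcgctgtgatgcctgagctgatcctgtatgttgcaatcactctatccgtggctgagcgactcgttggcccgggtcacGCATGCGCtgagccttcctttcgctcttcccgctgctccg
NDUFV3, chr21:42893059-42893308 (plus strand): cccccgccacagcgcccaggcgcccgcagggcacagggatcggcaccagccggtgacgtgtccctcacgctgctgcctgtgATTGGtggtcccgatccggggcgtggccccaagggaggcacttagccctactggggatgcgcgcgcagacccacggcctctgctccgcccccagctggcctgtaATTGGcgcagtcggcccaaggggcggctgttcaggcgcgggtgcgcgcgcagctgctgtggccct
The ATP5G1 window held 4 CCAAT boxes, a number reached by 0.930% of 27305 promoter windows of the same length. The COX6A1 window held 2 separate NRF1 motifs, 1 ETS motif and 2 CCAAT boxes. Counted with overlaps, 2 or more NRF1 motifs were found in 1.22% of all windows. A window with a single longer NRF1 site falls in that share. ATP5G2 had 1 NRF1 motif (2.81% of all windows had at least 1) and NDUFV3 had 2 CCAAT boxes (10.0% had at least 2). Also searched but not shown were NDUFA12, with 1 CCAAT box (33% had at least 1), and NDUFS6, with 1 NRF1 motif. The window of SDHA, likewise not shown, held none of the motifs. A YY1 motif, ATGGCGGC, was searched too and matched none of these windows (1.34% of all windows had at least 1). A match is a string of letters, not a bound site. A window was matched for 67 of the 88 members, which is 76.1%, so a comparison of motif shares between the members and other genes would be void and is not given.

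The libraries held between 46698729 and 114222169 expected counts, and every parental library (at least 59811522) was deeper than every resistant library (at most 55239600), so depth and cell line cannot be told apart. Levels are given as CPM, the usual normalised count relative to library total, after scaling by trimmed mean of M-values (TMM). The keratins KRT8 and KRT18 were at 671 CPM or more in every library and differed between the lines. KRT8 was at 1458 ± 52.7 CPM in vehicle-treated parental and 676 ± 6.11 CPM in vehicle-treated resistant cells, and KRT18 at 1249 ± 37.6 and 773 ± 12.0 CPM (SD, n = 3). VIM, a mesenchymal gene, was at 9445 ± 63.6 and 6282 ± 89.6 CPM (SD, n = 3). How far this difference between the lines bears on the members was not tested. By contrast, the leukocyte gene PTPRC did not exceed 0.0504 CPM and the endothelial gene PECAM1 did not exceed 0.159 CPM. RNAs that stay in the nucleus (MALAT1, NEAT1, KCNQ1OT1 and MIAT) summed to 321 to 357 CPM in vehicle-treated parental cells, 544 to 1187 after oxamate, 534 to 1112 in vehicle-treated resistant cells and 1080 to 1407 after oxamate. The third oxamate-treated parental library (1187 CPM) and the third vehicle-treated resistant library (1112 CPM) stood apart from their replicates, which lay between 534 and 583 CPM. Counts of calls without both libraries are given for the oxamate response in resistant cells and for the difference between responses. Values of single members without them are not given.

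The summed level of the members was 10419 ± 337 CPM (SD, n = 3) in vehicle-treated parental cells, 10706 ± 268 after oxamate, 8121 ± 250 in vehicle-treated resistant cells and 7812 ± 88.2 after oxamate. The highest resistant library (8328 CPM) lay below the lowest parental one (10103 CPM). Relative to the vehicle-treated parental mean the sum was 103% in oxamate-treated parental cells, 77.9% in vehicle-treated resistant cells and 75% in oxamate-treated resistant cells. An exact permutation test of 3 against 3 libraries cannot give a two-sided p below 0.1, so no p is given for the sum. The size of this drop depended on the scaling: as a share of all counts in a library, with no TMM factor, the members took 0.973% ± 0.027, 0.949% ± 0.015, 0.883% ± 0.019 and 0.867% ± 0.0062 (SD, n = 3) in the same order. Fewer cells with a transcript and less transcript per cell cannot be told apart in bulk RNA.

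**Figure D1:**
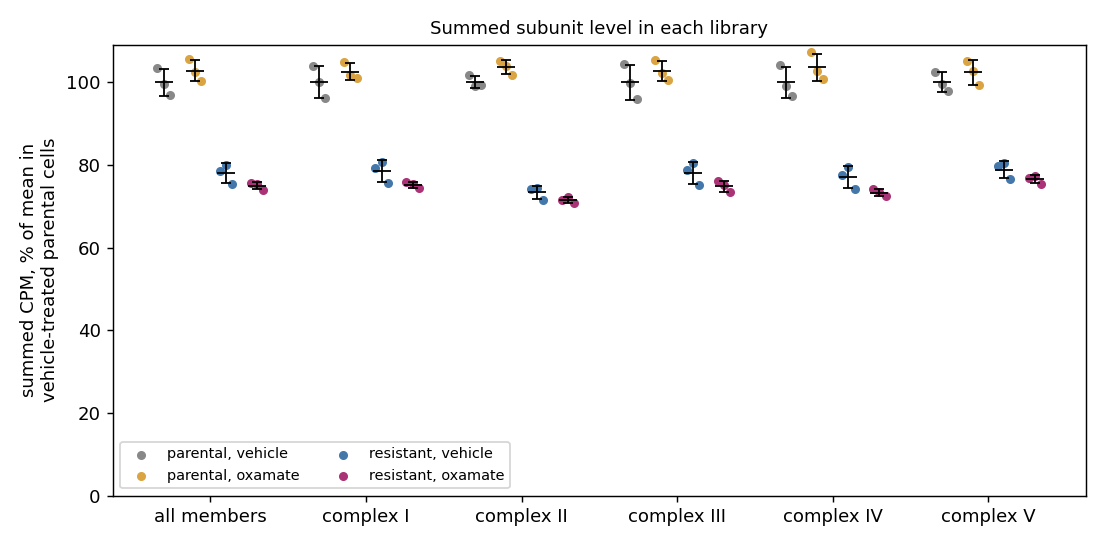
Summed CPM of all members and of each complex in each library (points, 3 per group), as a percentage of the mean in vehicle-treated parental cells, with the mean and SD of each group (bars). For all members the vehicle-treated resistant libraries average 77.9% and the oxamate-treated ones 75%, and no resistant library reaches a parental one.

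Within a condition the members differed far more than they did between conditions. Compared per length of transcript, as CPM per kilobase (CPM per kb) of the median GENCODE transcript, the tested members had a median of 122 CPM per kb in vehicle-treated parental cells. The highest was ATP5J2, the f subunit of ATP synthase, at 585 CPM per kb, followed by UQCRH, the hinge subunit of complex III, at 564, COX4I1 at 511 and ATP5B, the catalytic beta subunit, at 463. Only 4 tested members were below 10 CPM per kb, namely UQCRHL, COX6B2, ATP5S and ATP5J2-PTCD1. By complex the medians were 106 CPM per kb for complex I, 133 for complex II, 141 for complex III, 231 for complex IV and 154 for complex V. In vehicle-treated resistant cells the same medians were 76.2, 96.1, 109.9, 184 and 124 CPM per kb. The order of the 81 members hardly moved, with a Spearman rho of 0.991 between vehicle-treated parental and resistant cells, given as a description over genes that share libraries and lengths. The number of members at 100 CPM per kb or more went from 53 in vehicle-treated parental cells to 36 in vehicle-treated resistant cells.

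The 7 members that failed the filter were isoforms or copies. COX6A2 and COX7A1, the muscle isoforms of COX6A and COX7A, had 0 counts in every library and at most 3, respectively. COX4I2 had 1 count in 1 library, COX7B2 had 0 in all, and COX8C had between 1 and 5. ATP5L2 had at most 1 count and UQCRBP1, a pseudogene of UQCRB that the symbol rule admits, at most 5.22. Of the isoform families of complex IV, the cells thus used COX4I1, COX6A1, COX6B1, COX7A2, COX7B and COX8A. COX6B2, the testis isoform, was the only minor isoform that passed, at 2.51 ± 0.118 CPM in vehicle-treated parental cells against 159 ± 3.15 for COX6B1. NDUFA4L2, a paralogue of NDUFA4 outside the rule, stayed at or below 0.168 CPM.

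Vehicle-treated resistant cells were compared with vehicle-treated parental cells to see how the chain stood in cells selected on oxamate. At an adjusted p under 0.05, 78 of 81 members were lower in resistant cells and 0 were higher, against 37.3% lower and 38.4% higher among all genes tested. No member was higher at an unadjusted p under 0.05 either, and DESeq2 and limma-voom also called 78 lower and 0 higher. The median log2 fold change of the members was -0.36, a drop of 22%, beside 0.025 over all genes tested. The replicates of the lines did not overlap for the 78 lower members. How many of all genes tested had no overlap was not counted, so this is not read as particular to the members. The drops were modest. At the threshold of the study, an unadjusted p under 0.05 and more than 1.5-fold, 5 members were lower and 0 higher, against 6.14% and 17.2% of all genes, and these were ATP5G1, NDUFS5, NDUFA4, ATP5J2 and COX6A1. Where no TMM factor was applied and only library size scaled the counts, the median of all genes rose by 0.22, 59 members were lower and 5 higher, against 19.0% and 58.6% of all genes, and the members' median was -0.14 beside 0.24 over all genes.

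The same comparison after oxamate gave 75 members lower and 2 higher, against 39.7% and 40.6% of all genes tested. The median was -0.48, a drop of 28.5%, beside 0.015 over all genes. At the threshold of the study 13 members were lower and 0 higher, against 11.4% and 22.9% of all genes. These were NDUFA12, NDUFS5, NDUFA4, NDUFS3, NDUFA6, SDHA, UQCRH, UQCRHL, COX6A1, COX6B1, COX7B, ATP5G1 and ATP5J2. Scaled by library size only, with the median of all genes up by 0.32, 57 members were lower and 7 higher, against 19.3% and 62.6% of all genes, and the median was -0.16 beside 0.34 over all genes. The vehicle and oxamate comparisons share no library: 75 members were lower in both, and NDUFC2 was the only member called in opposite directions. How many of all genes were lower in both or called in opposite directions was not counted. These counts are therefore not read as particular to the members. Over the 81 members the log2 fold changes of these comparisons had a Pearson r of 0.75 and a Spearman rho of 0.74, a description over genes from 1 model and scaling.

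**Figure D2:**
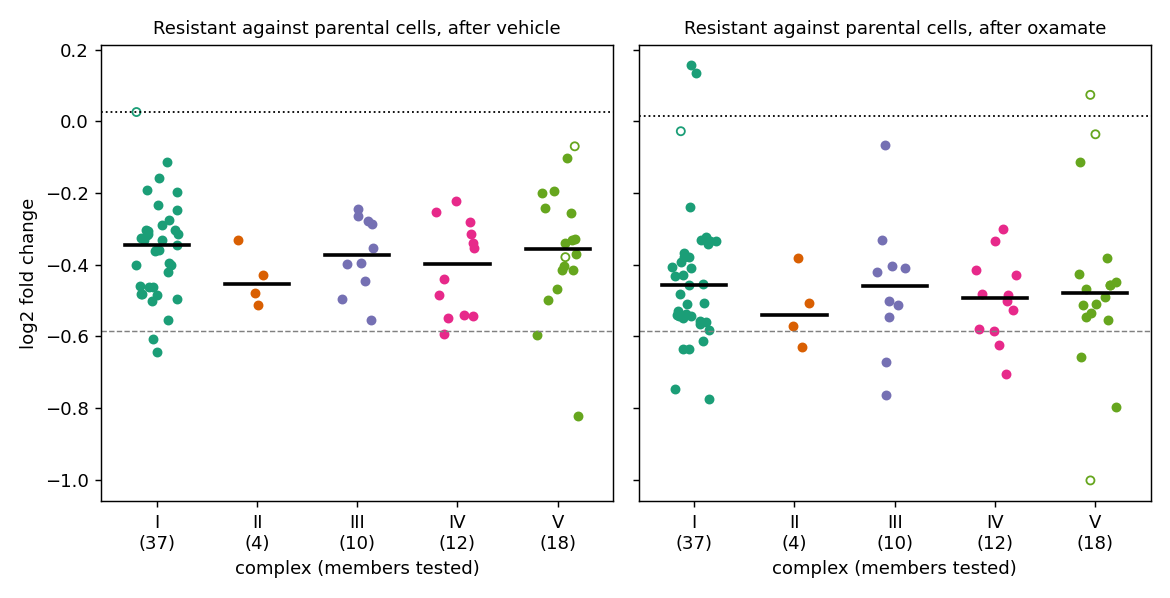
Log2 fold change of each tested member in resistant against parental cells, after vehicle (left) and after oxamate (right), by complex. Filled points are called at an adjusted p under 0.05, open points are not, black bars are medians, the dotted line is the median of all genes tested and the dashed line is 1.5-fold lower. Of 81 points, 80 lie below 0 after vehicle and 78 after oxamate.

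The complexes moved to a similar extent. After vehicle the median log2 fold change was -0.34 for complex I (36 of 37 lower), -0.45 for complex II (4 of 4), -0.37 for complex III (10 of 10), -0.40 for complex IV (12 of 12) and -0.36 for complex V (16 of 18). After oxamate it was -0.46 (34 of 37 lower, 2 higher), -0.54 (4 of 4), -0.46 (10 of 10), -0.49 (12 of 12) and -0.48 (15 of 18). Scaled by library size only, the same medians were -0.12, -0.24, -0.15, -0.18 and -0.14 after vehicle. Within a library, where no scaling enters, complex II took 6.47, 6.53 and 6.73% of the summed CPM of all members in vehicle-treated parental cells and 6.19, 6.11 and 6.24% in vehicle-treated resistant cells. Complex I took 32.8% ± 0.22 and 33.0% ± 0.093, and complex V took 29.9% ± 0.27 and 30.3% ± 0.16 (SD, n = 3). Complex IV went from 16.6, 16.4 and 16.4% to 16.2, 16.4 and 16.2%. After vehicle the replicates of the lines did not overlap for the shares of complexes II and IV. For the latter the gap was less than the rounding shown, and for the others they overlapped. After oxamate they did not overlap for complexes II, IV and V. Complex II then took 6.55, 6.66 and 6.66% in parental and 6.20, 6.29 and 6.28% in resistant cells. Complex IV took 16.8, 16.5 and 16.5% and 16.2, 16.1 and 16.1%. Complex V took 29.8, 30.0 and 29.6% and 30.5, 30.7 and 30.5%.

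**Figure D3:**
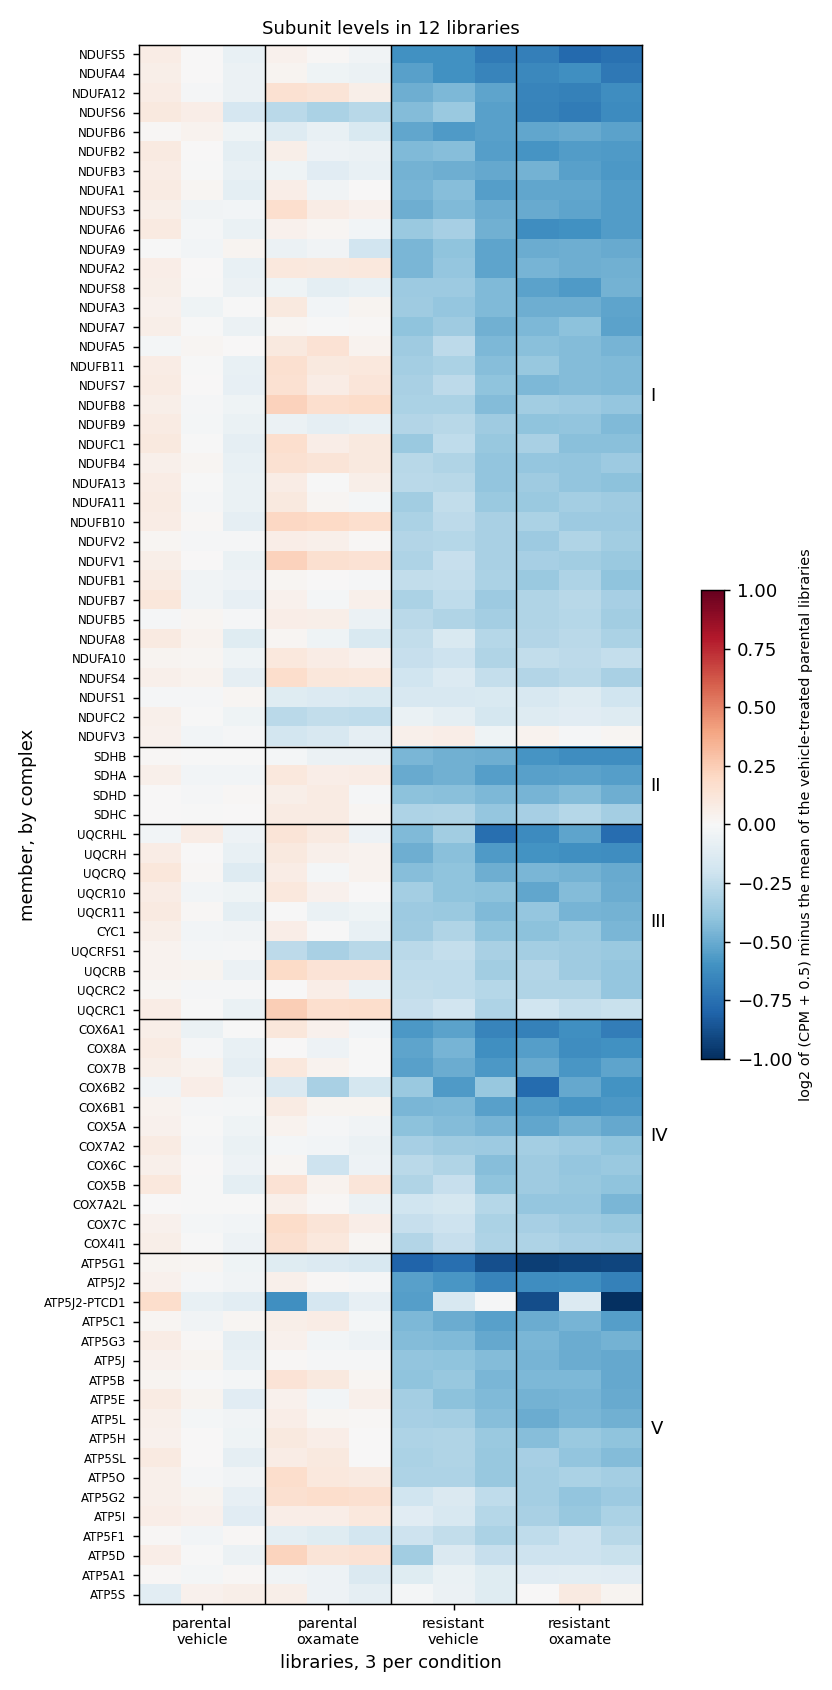
Level of the tested members shown (rows, grouped by complex I to V) in the 12 libraries (columns, 3 per condition), as log2 of CPM plus 0.5 minus the mean of the vehicle-treated parental libraries. Blue is lower and red is higher, with colours capped at 1. The 6 resistant libraries are blue in nearly every row, and NDUFV3, NDUFC2, NDUFS1, ATP5A1 and ATP5S are the palest rows.

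In complex I, NADH is oxidised at the tip of the matrix arm, by NDUFV1, which binds NADH and the flavin, with NDUFV2 and NDUFS1, which carry iron-sulfur clusters. NDUFV1 was at 232, 223 and 213 CPM in vehicle-treated parental cells and 179.9, 189 and 177 CPM in vehicle-treated resistant cells, with a log2 fold change of -0.29 ± 0.035 (SE, adjusted p = 1.4e-06). After oxamate NDUFV1 was at 261, 248 and 246 CPM in parental and 177, 175 and 171 CPM in resistant cells, a log2 fold change of -0.53 ± 0.035 (SE, adjusted p = 6.6e-10). The resistant libraries thus lay below all parental ones on both treatments. Differences between groups are given as log2 throughout. NDUFV2 was lower as well, with log2 fold changes of -0.30 after vehicle and -0.38 after oxamate. NDUFS1 was at 117, 118 and 120.2 CPM in vehicle-treated parental and 106, 106 and 107 CPM in vehicle-treated resistant cells, with a log2 fold change of -0.16 ± 0.024 (SE, adjusted p = 2.2e-05). After oxamate NDUFS1 was not called (-0.028 ± 0.025 SE, adjusted p = 0.31), and with upper-quartile factors or library size alone it was higher in resistant cells, by 0.059 and 0.30.

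NDUFV3, an accessory subunit that sits beside NDUFV1 and NDUFV2, did not follow them. It was at 45.9, 43.7 and 44.2 CPM in vehicle-treated parental cells and 46.3, 46.6 and 43.4 CPM in vehicle-treated resistant cells, and these ranges overlapped (0.026 ± 0.035 SE, adjusted p = 0.51). After oxamate it was at 39.3, 39.9 and 41.9 CPM in parental cells and 45.7, 44.1 and 45.2 CPM in resistant cells, higher in the latter by 0.16 ± 0.036 (SE, adjusted p = 8.4e-04). Per length, the ratio of NDUFV3 to NDUFV1 within a library was 0.0957, 0.0949 and 0.101 in vehicle-treated parental cells and 0.124, 0.119 and 0.118 in vehicle-treated resistant cells. After oxamate the ratio was 0.0728, 0.0779 and 0.0825 in parental and 0.125, 0.122 and 0.127 in resistant cells, and no replicates of the lines overlapped.

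NDUFS3, NDUFS7 and NDUFS8 belong to the lower part of the arm, where electrons pass to ubiquinone, and NDUFS7 and NDUFS8 carry iron-sulfur clusters. All 3 were lower in resistant cells. After vehicle the log2 fold changes were -0.48 for NDUFS3, -0.33 for NDUFS7 and -0.39 for NDUFS8, with adjusted p between 5.9e-09 and 1.8e-06. After oxamate they were -0.63, -0.56 and -0.45. Of the accessory subunits, NDUFS5, on the intermembrane side of the membrane arm, had the largest drop after vehicle. It was at 207, 197 and 187 CPM in parental and 129, 129 and 120.0 CPM in resistant cells, a log2 fold change of -0.64 ± 0.039 (SE, adjusted p = 4.7e-10), or -36.0%. NDUFA12, a subunit that joins late in assembly, had the largest drop after oxamate. It was at 76.4, 75.4 and 71.7 CPM in parental and 43.2, 42.7 and 44.5 CPM in resistant cells after oxamate, which differed by -0.78 ± 0.037 (SE, adjusted p = 1.4e-11). NDUFC2, a membrane arm subunit, was at 71.7, 69.0 and 67.4 CPM in vehicle-treated parental and 66.1, 64.9 and 61.4 CPM in vehicle-treated resistant cells, with a log2 fold change of -0.11 ± 0.030 (SE, adjusted p = 0.003). After oxamate NDUFC2 was instead higher in resistant cells (63.5, 64.2 and 63.3 CPM) than in parental cells (57.5, 58.5 and 58.0 CPM), by 0.13 ± 0.031 (SE, adjusted p = 1.0e-03). The response to oxamate was -0.26 ± 0.031 (SE, adjusted p = 2.7e-06) in parental cells and -0.011 ± 0.031 (SE, adjusted p = 0.84) in resistant cells. Under that scaling by library size only, NDUFC2 and NDUFS1 were higher in resistant cells after vehicle too, by 0.10 and 0.062. NDUFA4, which is named for complex I and is a subunit of complex IV, changed by -0.61 ± 0.038 after vehicle and -0.64 ± 0.038 (SE) after oxamate.

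Complex II has no mitochondrially encoded subunit and also serves the citric acid cycle. SDHA, the flavoprotein that oxidises succinate, was at 304, 288 and 288 CPM in vehicle-treated parental cells and 207, 210.0 and 200.2 CPM in vehicle-treated resistant cells, a difference of -0.51 ± 0.027 (SE, adjusted p = 8.5e-11). After oxamate it was at 316, 308 and 308 CPM and 201, 202 and 199.9 CPM, a log2 fold change of -0.63 ± 0.027 (SE, adjusted p = 3.6e-12). No replicates of the lines overlapped on either treatment. Pseudogenes of SDHA share sequence with it, so part of its reads is assigned with uncertainty: SDHAP1, SDHAP2 and SDHAP3 were at 1.09 to 15.4 CPM. SDHB, the iron-sulfur subunit, changed by -0.48 after vehicle and -0.57 after oxamate, and the membrane anchors SDHC and SDHD by -0.33 and -0.43 after vehicle.

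In complex III, CYC1, which is cytochrome c1, fell from 255 ± 9.10 to 199.7 ± 7.11 CPM (SD, n = 3) between the vehicle-treated lines, a log2 fold change of -0.35 ± 0.038 (SE, adjusted p = 3.8e-07). The core subunits UQCRC1 and UQCRC2 changed by -0.25 and -0.26, and UQCRH by -0.49 after vehicle and -0.67 after oxamate. UQCRHL, a near-copy of UQCRH at 6.44, 6.95 and 6.32 CPM in vehicle-treated parental cells, had the largest fitted drop of the complex (-0.76 ± 0.10 SE, adjusted p = 4.2e-06 after oxamate), but its reads cannot be separated with certainty from those of UQCRH. UQCRFS1, the Rieske iron-sulfur protein, was the member of complex III with the smallest difference after oxamate. It was at 98.0, 94.7 and 95.1 CPM in vehicle-treated parental cells, 79.8, 76.5 and 78.9 CPM after oxamate, 79.7, 81.1 and 76.6 CPM in vehicle-treated resistant cells and 75.6, 75.0 and 73.9 CPM after oxamate. The oxamate-treated parental libraries thus lay close to the resistant ones. The log2 fold change between the lines was -0.28 ± 0.028 (SE, adjusted p = 1.6e-07) after vehicle and -0.067 ± 0.029 (SE, adjusted p = 0.041) after oxamate, and the latter was 0.019 with upper-quartile factors and 0.26 with library size alone.

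In complex IV every tested member was lower in resistant cells after both treatments. COX6A1, the ubiquitous isoform of COX6A, was at 184, 169 and 176 CPM in vehicle-treated parental cells and 118, 121 and 111 CPM in vehicle-treated resistant cells, with a log2 fold change of -0.59 ± 0.041 (SE, adjusted p = 2.2e-09). After oxamate it was at 191, 182 and 172 CPM and 110.0, 115 and 109 CPM, a log2 fold change of -0.71 ± 0.042 (SE, adjusted p = 1.6e-10). COX7B and COX8A followed closely, with -0.55 and -0.54 after vehicle. The other principal isoforms had -0.28 (COX4I1), -0.48 (COX6B1) and -0.35 (COX7A2), and the minor isoform COX6B2 had -0.54. COX7A2L, which promotes the joining of complexes III and IV into supercomplexes rather than being a core subunit, changed by -0.22 after vehicle and -0.41 after oxamate. With NDUFA4 counted in complex IV, its median was -0.44 after vehicle and -0.50 after oxamate.

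ATP synthase held both the largest drop and some of the smallest. Its catalytic head is made of the alpha subunit, ATP5A1, and the beta subunit, ATP5B. ATP5B was at 867, 847 and 840.4 CPM in vehicle-treated parental cells and 644, 656 and 618 CPM in vehicle-treated resistant cells, with a log2 fold change of -0.41 ± 0.031 (SE, adjusted p = 6.2e-09). ATP5A1 was at 490.2, 479 and 489.8 CPM and 448, 464 and 448 CPM, a log2 fold change of -0.10 ± 0.029 (SE, adjusted p = 0.0043). After oxamate the lines differed by -0.55 in ATP5B and by -0.036 ± 0.029 (SE, adjusted p = 0.26) in ATP5A1. Scaled by library size only, ATP5A1 was higher in resistant cells, by 0.12 after vehicle and 0.29 after oxamate. The ratio of ATP5A1 to ATP5B within a library does not depend on the scaling. Per length it was 0.495, 0.495 and 0.510 in vehicle-treated parental cells, 0.445, 0.452 and 0.445 after oxamate, 0.609, 0.619 and 0.633 in vehicle-treated resistant cells and 0.631, 0.634 and 0.657 after oxamate. The ratio was higher in every resistant library than in any parental one.

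The proton-carrying c ring is encoded by ATP5G1, ATP5G2 and ATP5G3, which give the same mature protein from different precursors. ATP5G1, at chr17:48892765-48895871 in the GENCODE annotation of GRCh38, had the largest drop of all called members after vehicle. It was at 57.9, 57.6 and 55.0 CPM in vehicle-treated parental cells, 52.2, 51.5 and 50.9 CPM after oxamate, 32.3, 33.4 and 30.7 CPM in vehicle-treated resistant cells and 29.4, 29.6 and 29.9 CPM after oxamate. The log2 fold change between the lines was -0.82 ± 0.033 (SE, adjusted p = 3.2e-12) after vehicle and -0.80 ± 0.034 (SE, adjusted p = 3.2e-12) after oxamate, or -43.5% and -42.5%. ATP5G3 changed by -0.47 on both treatments, and ATP5G2 by -0.20 after vehicle and -0.54 after oxamate. Per length, ATP5G1 gave 24.3, 24.9 and 25.4% of the transcripts of the 3 genes in vehicle-treated parental cells and 19.2, 19.5 and 19.1% in vehicle-treated resistant cells. ATP5G2 gave 29.2, 29.5 and 29.2% and 34.8, 35.5 and 35.1%, and the share of ATP5G3 overlapped between these groups. After oxamate the share of ATP5G1 was 22.2, 22.4 and 22.4% in parental and 18.6, 19.1 and 19.0% in resistant cells, while that of ATP5G2 overlapped between the lines. The share of ATP5G3 after oxamate was 46.0, 44.7 and 44.6% in parental and 48.1, 48.0 and 48.0% in resistant cells, without overlap. These shares do not depend on the scaling, whereas the difference in ATP5G2 itself after vehicle was 0.020 with library size alone.

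Elsewhere in complex V, ATP5J2 changed by -0.60 ± 0.033 and ATP5C1, the gamma subunit of the central stalk, by -0.50 ± 0.032 (SE) after vehicle. ATP5F1, which is the b subunit of the outer stalk, changed by -0.26 after vehicle and -0.11 after oxamate, and with library size alone it was 0.21 higher after oxamate. ATP5S, which is no subunit and has been renamed DMAC2L, was not called (-0.070 after vehicle and 0.074 after oxamate). ATP5SL, renamed DMAC2 and known as an assembly factor of complex I rather than a subunit of complex V, changed by -0.34 and -0.45. ATP5J2-PTCD1, a readthrough of ATP5J2 into PTCD1, did not exceed 1.10 CPM in any library and was not called. With members left out that have near-copies, are readthroughs or are no subunits, 69 of 70 were lower after vehicle.

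**Figure D4:**
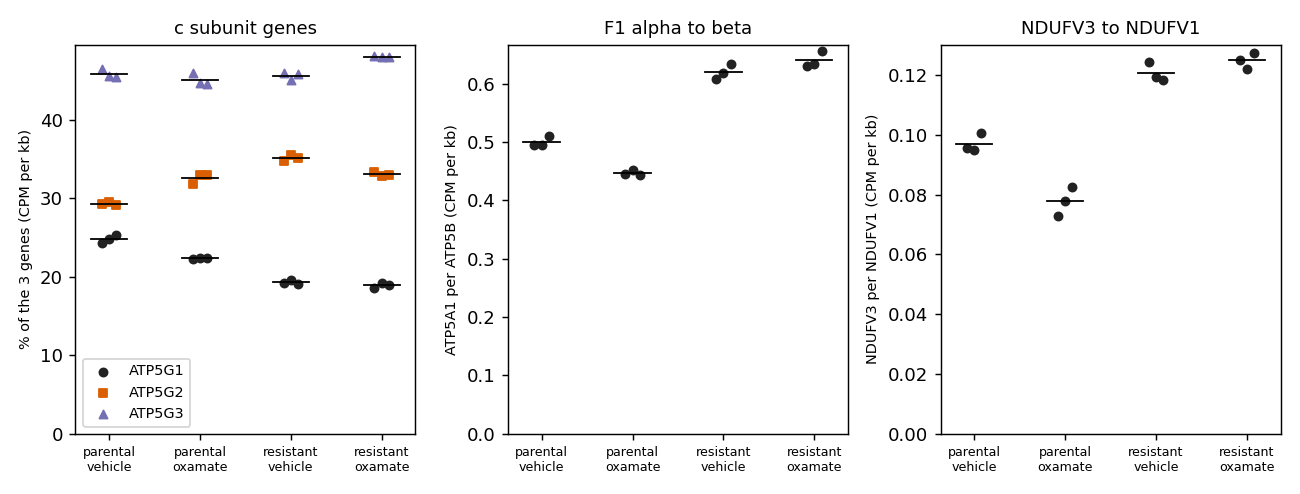
Ratios of transcript levels per kilobase within each library, 3 libraries per condition (points) with their mean (bar): the share of each c subunit gene (left), ATP5A1 per ATP5B (middle) and NDUFV3 per NDUFV1 (right), on axes that start at 0. ATP5G1 goes from about 25% to about 19%, and both ratios are higher in every resistant library than in any parental one.

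Oxamate against vehicle in parental cells moved the members little and in both directions. Called at an adjusted p under 0.05, 20 were higher and 11 lower of 81, against 28.3% and 30.4% of all genes tested, and 0 passed the threshold of the study in either direction, against 5.69% higher and 4.19% lower. DESeq2 and limma-voom also placed 0 members past that threshold. The median was 0.032. These directions depended on the scaling: with library size alone, which lowered the median of all genes by 0.074, 6 members were higher and 27 lower, against 19.6% and 40.6% of all genes. Among those higher were UQCRC1 (0.20 ± 0.036 SE, adjusted p = 2.2e-04), NDUFB8 (0.19 ± 0.033), NDUFB10 (0.19 ± 0.035), NDUFV1 (0.18 ± 0.034) and ATP5D (0.16 ± 0.043, all SE). Among those lower were NDUFS6 (-0.30 ± 0.057 SE, adjusted p = 2.9e-04), UQCRFS1 (-0.29 ± 0.028 SE, adjusted p = 2.6e-07), NDUFC2 (-0.26 ± 0.031 SE, adjusted p = 2.7e-06) and COX6B2 (-0.26 ± 0.11 SE, adjusted p = 0.044). Of complex II only SDHA was called (0.083 ± 0.027 SE, adjusted p = 0.014). With nuclear RNA as a covariate 36 members were higher and 5 lower, against 23.6% and 25.6% of all genes, and the median was 0.095. The log2 fold changes of NDUFA9 and CYC1, at -0.10 and -0.0033, were at 0.030 and 0.10 with that covariate.

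In resistant cells 66 of 81 members were not called after oxamate. The other 15 were lower and 0 were higher, against 12.5% and 9.01% of all genes tested. No member was higher at an unadjusted p under 0.05, and DESeq2 and limma-voom also called 0 higher. At the threshold of the study 0 were called by edgeR, against 0.274% lower and 2.23% higher among all genes. DESeq2 gave 0 there and limma-voom gave 1 lower. The median was -0.058. The number of lower members was unstable, and so was the share of all genes called lower. It was 23 without the third vehicle-treated resistant library (13.7% of all genes) and 28 without both libraries that stood apart in nuclear RNA (16.6%). Without the first or the second vehicle-treated resistant library it was 5 (8.06% and 7.74%), without any 1 of the oxamate-treated ones 7 (8.12 to 9.60%), and with nuclear RNA as a covariate 3 (6.73%). It was 22 with the replicate number as a block (14.6%) and 22 when only the resistant libraries were fitted (14.4%). The largest called drops by complex were NDUFS6 (-0.22 ± 0.060 SE, adjusted p = 0.018), SDHB (-0.14 ± 0.023 SE, adjusted p = 0.0010), UQCRH (-0.12 ± 0.039 SE, adjusted p = 0.041), COX7A2L (-0.19 ± 0.035 SE, adjusted p = 0.0017) and ATP5G2 (-0.17 ± 0.036 SE, adjusted p = 0.0037). NDUFA6, an accessory subunit of complex I, also fell (-0.21 ± 0.046, SE).

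In both lines 5 members were called. How many of all genes were called in both lines, or in opposite directions, was not counted. This number is therefore not read as particular to the members. ATP5G1 and NDUFS6 fell in both. NDUFS6 was at 76.9, 75.2 and 63.6 CPM in vehicle-treated parental cells, 59.4, 57.5 and 59.0 CPM after oxamate, 52.9, 55.3 and 49.1 CPM in vehicle-treated resistant cells and 45.0, 44.0 and 46.2 CPM after oxamate. ATP5G2, COX7C and NDUFA12 rose in parental and fell in resistant cells. ATP5G2 went from 105, 103 and 95.2 CPM to 113, 114 and 113 CPM in parental cells (0.16 ± 0.035 SE, adjusted p = 7.7e-04) and from 88.0, 91.3 and 84.7 CPM to 79.5, 76.5 and 78.2 CPM in resistant cells. COX7C, a small subunit of complex IV, went from 178, 171 and 169 CPM to 196, 189 and 180.5 CPM and from 147, 149.9 and 138 CPM to 137, 135 and 133 CPM. None of these treated and untreated ranges overlapped. For NDUFA12 the parental ranges did overlap, and its responses were 0.11 ± 0.035 and -0.17 ± 0.038 (SE). Over the 81 members the responses of the lines, which share no library, had a Pearson r of 0.45 and a Spearman rho of 0.038, a description over genes. Without ATP5J2-PTCD1, r was 0.13 and rho 0.0015 over 80 members.

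**Figure D5:**
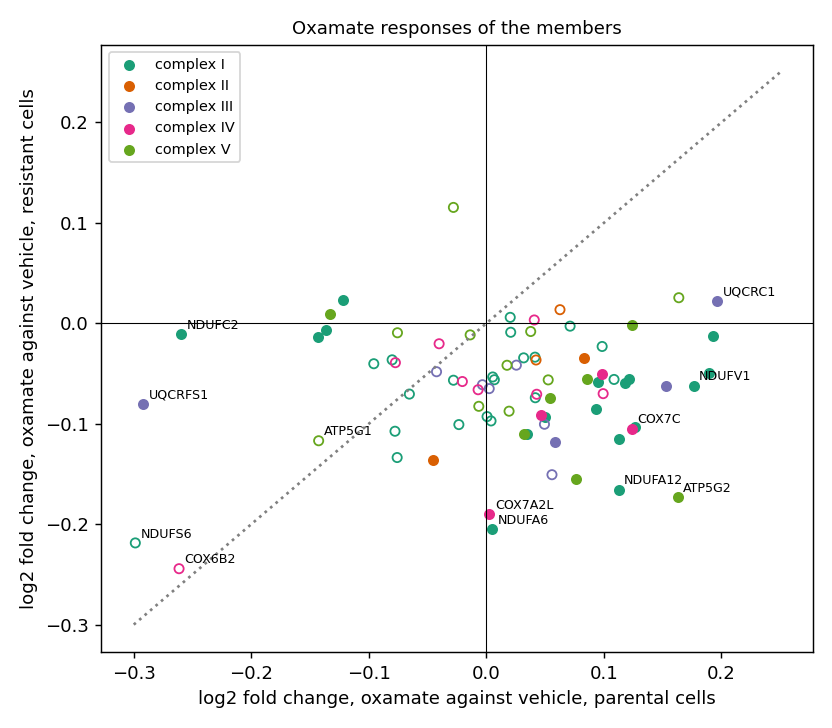
Log2 fold change of oxamate against vehicle in parental cells (horizontal) and resistant cells (vertical) for 80 tested members, coloured by complex, without ATP5J2-PTCD1, whose response was too imprecise to place. Filled points have responses that differ between the lines at an adjusted p under 0.05, and the dotted line marks equal responses. In resistant cells 73 of 81 members lie below 0, and in parental cells 53 lie above it.

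The model also gave a test of the difference between the responses. It was negative, with the resistant response below the parental one, for 28 members and positive for 6, against 21.4% and 22.7% of all genes tested, with a median of -0.090. The negative side included NDUFB8, NDUFB10 and NDUFV1 of complex I, SDHA and SDHB, UQCRB, UQCRC1 and UQCRH, COX7A2L and COX7C, and 6 members of complex V led by ATP5G2 (-0.34 ± 0.050 SE, adjusted p = 5.6e-05). The positive side held NDUFC2 (0.25 ± 0.044 SE, adjusted p = 2.6e-04), UQCRFS1 (0.21 ± 0.040 SE, adjusted p = 4.5e-04), NDUFB6, NDUFS1, NDUFV3 and ATP5F1. With library size alone, which moved the median of all genes from -0.0072 to 0.098, 5 were negative and 12 positive, against 12.0% and 34.6% of all genes, and the members had a median of 0.015. Without both libraries rich in nuclear RNA, 43 were negative and 4 positive, against 23.3% and 24.0% of all genes.

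Assembly factors build the complexes without staying in them. Of 16 factors of complex I, 10 were lower and 2 higher in vehicle-treated resistant cells, against 37.3% and 38.4% of all genes tested. After oxamate 9 were lower and 5 higher, against 39.7% and 40.6%. NDUFAF2 changed by -0.45 ± 0.032 after vehicle, whereas TMEM186 was 1.74 ± 0.081 higher and NDUFAF4 0.56 ± 0.058 (SE) higher after oxamate. Of 23 factors of complex IV, 17 were lower and 4 higher after vehicle, with log2 fold changes from -0.82 to 0.41. CMC2, at -0.71, had the smallest p. COA7 was 1.23 ± 0.052 (SE, adjusted p = 2.9e-12) higher in resistant cells after oxamate and changed by -1.05 ± 0.051 with oxamate in parental cells. The lists of complex II (4 factors), complex III (6) and complex V (3) had 3, 3 and 2 lower and 1, 2 and 0 higher after vehicle, where 37.3% of all genes were lower and 38.4% higher, with SDHAF3 (-0.56), BCS1L (-0.51) and ATPAF1 (-0.38) having the smallest p. Scaling by library size only, the median of the factors of complex I was -0.016 after vehicle and 0.13 after oxamate, and that of complex IV was 0.037 and 0.16, beside 0.24 and 0.34 over all genes.

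Of 13 tested regulators of mitochondrial biogenesis, 8 were lower and 2 higher in vehicle-treated resistant cells, against 37.3% and 38.4% of all genes tested. After oxamate 4 were lower and 6 higher, against 39.7% and 40.6%. NRF1 and GABPA were picked for the motifs above after their values were seen. NRF1, which binds many promoters of respiratory genes, changed by -0.65 ± 0.039 with oxamate in parental cells, was not called between the vehicle-treated lines (0.081 ± 0.037 SE, adjusted p = 0.058) and was 0.60 ± 0.041 (SE) higher in resistant cells after oxamate. GABPA, an ETS factor, was lower in vehicle-treated resistant cells, with a log2 fold change of -0.11. YY1 was lower, with log2 fold changes of -0.53 ± 0.030 after vehicle and -0.70 ± 0.030 after oxamate. The mitochondrial helicase gene C10orf2, now TWNK, changed by -1.04 ± 0.046 with oxamate in parental cells and was 1.25 ± 0.047 (SE) higher in resistant cells after oxamate. Without TMM factors 7 of the 13 were higher and 3 lower after vehicle, against 58.6% and 19.0% of all genes. PPARGC1A, the coactivator PGC-1alpha, was at or below 0.019 CPM in every library.

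Other parts of the oxidative machinery were lower too. The soluble carrier CYCS, cytochrome c, changed by -0.50 ± 0.029 (SE, adjusted p = 2.5e-10) after vehicle. The other listed genes outside the symbol rule (NDUFAB1, ATPIF1, USMG5 and C14orf2) were lower after both treatments. All 14 tested enzymes of the citric acid cycle were lower in vehicle-treated resistant cells (median -0.29) and 11 after oxamate (median -0.37), with the smallest p for IDH2 at -0.64 ± 0.033 and -0.85 ± 0.033 (SE). Of 77 mitochondrial ribosomal proteins, 60 were lower and 4 higher after vehicle (median -0.25). Of 80 cytosolic ribosomal proteins, 75 were lower after vehicle (median -0.21) and 77 after oxamate (median -0.46). Among all genes tested, 37.3% were lower and 38.4% higher after vehicle, and 39.7% were lower and 40.6% higher after oxamate. With library size alone the medians were -0.073 and -0.042 for the citric acid cycle, -0.034 and 0.056 for mitochondrial and 0.0096 and -0.14 for cytosolic ribosomal proteins, after vehicle and oxamate, where all genes had 0.24 and 0.34. In parental cells oxamate raised 72 of the 80 cytosolic ribosomal proteins and lowered 34 of the 77 mitochondrial ones, where the members had 20 higher and 11 lower. Of all genes tested, 28.3% were higher and 30.4% lower there.

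Most members are short, and short transcripts as a whole were lower in resistant cells. The median transcript length of the tested members was 766 bases. Among all genes tested with a transcript under 1000 bases, 1447 in number, the median log2 fold change between the lines was -0.18 after vehicle and -0.30 after oxamate, while among 3200 genes of 4000 bases or more it was 0.15 and 0.24. The 51 members under 1000 bases had medians of -0.39 and -0.49, and the 10 members of 2000 to 4000 bases had -0.30 and -0.36, where all 5628 genes of that length had 0.053 and 0.068. The 19 members of 1000 to 2000 bases had -0.34 and -0.51, where all 3828 genes of that length had -0.084 and -0.14. The members' medians were below those of all genes in each class with a member median. Only 1 member had 4000 bases or more, so that class has none. The part of length in the result was not tested further. With the summed nuclear RNA as a covariate the members' median was -0.30 after vehicle and -0.45 after oxamate, and 75 and 73 members were lower.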

How the data were processed

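RNA was sequenced from 12 MIAPaCa2 libraries, 3 per group, grouped by the labelled phenotype and treatment. The deposited values are expected counts per gene symbol, which the authors made with RSEM 1.2.15 and Bowtie2 2.1.0 on hg38 according to the submitters' processing notes. The study's methods also name STAR and featureCounts, which give whole counts. Of these values 11.6% were not whole. Expected counts were rounded, genes with low counts removed with filterByExpr, TMM factors applied, and 4 group means fitted over all 12 libraries with the quasi-likelihood test of edgeR 4.0.16 (R 4.3.3), with Benjamini-Hochberg adjustment over 14582 genes. Calls had an adjusted p under 0.05. The fit was tested on simulated data. Replicates differed by more than counting noise (lowest chi-square per degree of freedom 2.11), and the common biological coefficient of variation was 0.0353. No interval for counting error is given.

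Alternatives were other scalings and filters, unrounded counts, DESeq2 1.42.0, limma-voom (limma 3.58.1), a replicate block, a covariate and left-out libraries. Lengths are medians over annotated transcripts, for 96.7% of genes tested and all 88 members. Named were, per comparison and complex, the called member with the largest change and no overlap, catalytic and core subunits, COX isoforms, ATP5G1 to ATP5G3, NDUFA4 and NDUFA4L2, members with opposite oxamate responses, members that failed the filter, and the gene with the smallest p per list, other members being named after their values were seen. The values of 1 member are not reported here, though it stays in the fit and the counts. The members and lists were chosen with earlier results of these data known.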

Additional observations from a re-analysis of the deposited data

Results flagged for a closer look

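The oxamate responses of the lines differed, by the test of the difference itself, for 34 of the 81 members tested. The resistant response was below the parental one for 28 and above it for 6, against 21.4% and 22.7% of all genes tested. Values are the log2 response in resistant cells minus that in parental cells, at an adjusted p under 0.05 by edgeR. In complex I the members with a negative difference included NDUFA12 (-0.28), NDUFV1 (-0.24), NDUFB10 (-0.24), NDUFS4 (-0.23), NDUFS7 (-0.23), NDUFA6 (-0.21), NDUFB8 (-0.21), NDUFA5 (-0.18), NDUFB11 (-0.18), NDUFB4 (-0.18), NDUFS3 (-0.15) and NDUFA3 (-0.14). In complex II it was negative for SDHA (-0.12) and SDHB (-0.090), and in complex III for UQCRB (-0.22), UQCRH (-0.18) and UQCRC1 (-0.17). In complex IV it was negative for COX7C (-0.23), COX7A2L (-0.19), COX4I1 (-0.15) and COX6B1 (-0.14), and in complex V for ATP5G2 (-0.34), ATP5I (-0.23), ATP5L (-0.14), ATP5B (-0.14), ATP5H (-0.13) and ATP5O (-0.13). It was positive for NDUFC2 (0.25), UQCRFS1 (0.21), NDUFB6 (0.14), ATP5F1 (0.14), NDUFV3 (0.13) and NDUFS1 (0.13). Under scaling by library size only, the difference was called for 17 members, 5 negative and 12 positive, against 12.0% and 34.6% of all genes.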

How the results depend on the processing

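Between the lines, 78 and 77 members were called after vehicle and oxamate, and leaving out each library in turn gave 78 to 78 and 76 to 77, with medians from -0.38 to -0.32 and from -0.50 to -0.47. Of all genes, 36.2 to 37.3% were then higher and 35.7 to 36.7% lower after vehicle. After oxamate 38.8 to 40.8% of all genes were higher and 38.2 to 39.3% lower. These medians were -0.28 and -0.40 with upper-quartile factors, -0.14 and -0.16 with library size alone, and -0.30 and -0.45 with nuclear-retained RNA as a covariate. In parental cells leaving out each library gave 22 to 32 called and medians of 0.00 to 0.05, while the median was -0.043 with library size alone and 0.095 with the covariate. Of all genes, 25.1 to 26.7% were higher and 27.7 to 29.3% lower in parental cells with each library left out. In resistant cells leaving out each library gave 5 to 23 called, all lower, and medians of -0.09 to -0.04. Of all genes, 7.74 to 13.7% were then lower and 4.55 to 9.52% higher. The 15 calls there became 7 with upper-quartile factors (8.70% of all genes lower) and 7 with library size alone (8.09%). They became 3 with the covariate (6.73%, median -0.012). Without the 2 libraries richest in nuclear RNA, an alternative chosen after seeing the data, they became 28 (16.6%). For the difference between responses, leaving out each library gave 26 to 43 called and medians of -0.13 to -0.07, and library size alone gave 17 called with a median of 0.015. With each library left out, the difference was positive for 20.7 to 23.1% of all genes and negative for 19.3 to 22.5%. With library size alone these shares were 34.6% and 12.0%. With library size alone, the sign of the fitted value changed for 30 members in parental cells, 12 in resistant cells and 27 in the difference of responses, of which 3, 0 and 1 were called under either scaling. These were COX7A2L (-0.073), NDUFA10 (-0.0038) and UQCRC2 (-0.073) in parental cells and SDHB (0.015) in the difference. Among members called under either scaling, signs also changed between the lines, after vehicle for ATP5A1 (0.12), ATP5G2 (0.020), ATP5I (0.025), ATP5S (0.15), NDUFC2 (0.10), NDUFS1 (0.062) and NDUFS4 (0.022) and after oxamate for ATP5A1 (0.29), ATP5F1 (0.21), COX6C (0.024), NDUFA10 (0.0035), NDUFA8 (0.087), NDUFS1 (0.30) and UQCRFS1 (0.26). With the covariate 10 members changed sign in parental cells, of which CYC1 (0.10) and NDUFA9 (0.030) were called in either fit, and 23 in resistant cells, of which 0 were. After oxamate NDUFS1 (0.059) and UQCRFS1 (0.019) changed sign with upper-quartile factors. The cause of these changes was not tested. Another scaling moves all genes of a comparison by nearly one amount. With the replicate block 24 members were higher and 13 lower in parental cells, against 29.3% and 31.2% of all genes. In resistant cells 0 were higher and 22 lower, against 11.1% and 14.6%. Between the lines 0 were higher and 78 lower after vehicle, against 38.9% and 37.7%, and 2 and 75 after oxamate, against 41.1% and 39.9%. The difference of responses was positive for 6 and negative for 35, against 23.8% and 22.9%. Of same-numbered pairs 3 of 18 correlated above 0.1, and of other pairs 2 of 36, with medians of 0.025 and -0.025. With 3 replicates a group these values cannot settle whether replicate numbers pair the samples. Fitting only the samples compared could not be run for the difference, which needs all 12.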
